A study of Mus musculus with 46 samples.

Results

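The comparison set livers of mice on western diet against livers of mice on chow, in a mouse line that lacks Plvap in hepatic stellate cells. Its members were chosen from the labels alone, as all western diet knockout livers (4 libraries) and all chow knockout livers (5 libraries) that had been fasted for 12 h. These are 9 of the 46 liver libraries in the series. All 9 came from male mice of strain C57BL/6JBomTac, labelled Plvaptm1.1Salm-Tg(Lrat-cre)1Rshw, and the tissue was snap frozen. The Cre transgene is driven by Lrat, a gene of the vitamin A storing stellate cells, so other liver cells such as endothelium were not the target of the deletion. Mice of the western group had the diet together with fructose in the drinking water for 6 weeks, so the solid diet and the fructose cannot be told apart. Mice of the chow group had normal chow, and the labels used here give no age for either group. Set beside them were littermate controls of the same line and fast, 5 on western diet with fructose and 6 on chow, and 5 knockout livers after 6 weeks of high-fat diet with plain water. The western and high-fat libraries stand in one count table and the chow libraries in another, so diet and table cannot be told apart in any comparison of western diet with chow. Western against high-fat diet lies within 1 table.

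The product of Plvap forms the thin diaphragms found across endothelial fenestrae and the necks of caveolae. The liver makes cholesterol along the mevalonate pathway, whose enzymes are switched on by the transcription factor SREBP2 when membrane sterol is low and fall silent when sterol is plentiful. An excess of sterol instead activates the nuclear receptors LXR, whose targets include the transporters that pass cholesterol into bile. In rodents a further set of liver genes differs between the sexes under the pulse pattern of growth hormone, among them the major urinary proteins and several cytochromes P450.

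Library totals ran from 11095895 to 18708646 counts over the 9 libraries. Values are given below as CPM, counts scaled to the library total with TMM factors, which compares a gene between libraries but not genes of unequal length with each other. The liver label was matched by Alb, at 35360 to 74760 CPM, and the male label by Xist, at or below 0.0964 CPM, with Ddx3y at 84.3 to 146 CPM. Plvap, the targeted gene, measured 6.92, 4.41, 5.83, 4.75 and 5.62 CPM in the chow knockouts and 5.30, 4.86, 6.14 and 5.65 CPM in the western knockouts. All 9 values lay below those of the littermate controls, which ran from 21.3 to 34.1 CPM on chow and from 20.8 to 39.3 CPM on western diet. Plvap did not differ detectably between the diets (log2 fold change -0.01 ± 0.21 SE, adjusted p = 0.994). The stellate cell gene Lrat lay at 7.20 to 13.8 CPM on chow and 8.48 to 13.004 CPM on western diet. One library stood apart in other tissue: western knockout B held 52.1 CPM in sum over 8 muscle genes, of which Tnnc2 was at 0 in all 9 libraries, against at most 0.536 CPM in each of the other 8 libraries. On the first principal component of the 1000 most variable genes (43.5% of the variance), chow knockout C lay nearest to the western livers, at 0.065 against -9.06 to -19.8 for the other chow livers and 8.74 to 19.5 for the western livers.

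On western diet most genes of cholesterol synthesis fell, and smaller numbers of sterol export, fatty acid binding and male-biased genes rose. Of 13807 genes tested with edgeR's quasi-likelihood test, 367 passed a Benjamini-Hochberg adjusted p of 0.05 (2.66%), 162 higher (1.17%) and 205 lower (1.48%) on western diet. Changes over 2-fold were seen for 73 of the higher and 76 of the lower genes, and the median log2 fold change over all genes tested was 0.00. In 314 of the 367 genes the western and chow libraries did not overlap, against 8.87% of all genes tested. The calls were made on the same libraries, so this is not separate evidence. The number of calls moved with single libraries. It was 231 without chow knockout B, 210 without D and 148 without E, and 156, 219 and 144 without western knockouts B, C and D. DESeq2 called 598 genes. The labels number the libraries as replicates without stating that each is another animal, so p-values measure the spread between these libraries. These are whole livers, in which fewer cells of a type and less RNA per cell cannot be told apart.

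**Figure D1:**
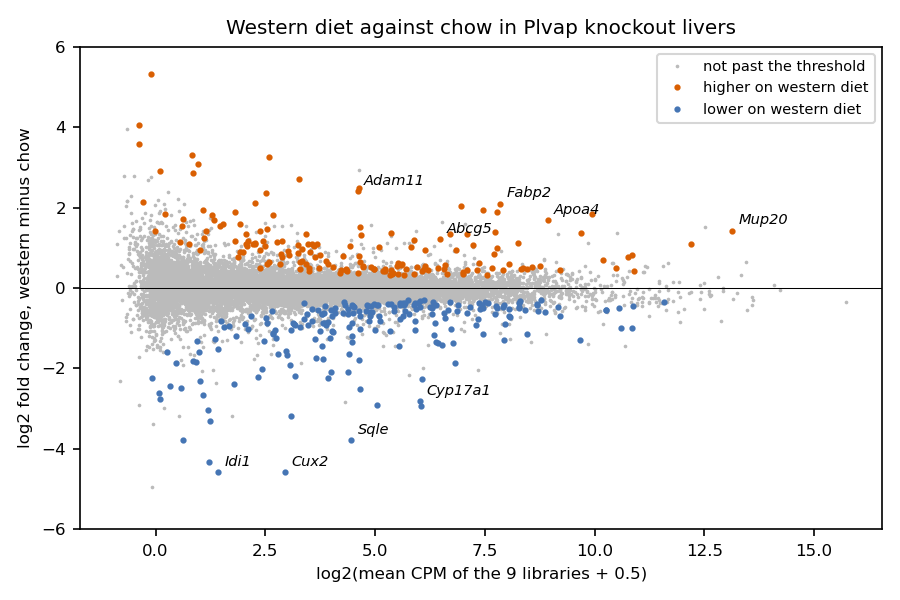
Each point is 1 of 13807 genes, with log2 of its mean CPM over the 9 libraries plus 0.5 on the x axis and the log2 fold change of western diet minus chow in Plvap knockouts on the y axis. Coloured points are the 162 genes higher and 205 genes lower at an adjusted p under 0.05, and Idi1, Cux2 and Sqle lie at the bottom.

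Cholesterol synthesis and uptake fell as a group. Of 26 listed genes, all tested, 17 fell and 0 rose, and none rose at an unadjusted p under 0.05, by DESeq2 or by limma-voom. The background was 1.48% of all genes lower, and the list's median log2 fold change was -1.32 against 0.00 over all genes. The 17 include genes of the mevalonate steps (Mvk, Pmvk, Mvd, Idi1, Fdps), squalene epoxidation and cyclisation (Sqle, Lss), the path from lanosterol to cholesterol (Cyp51, Tm7sf2, Msmo1, Nsdhl, Hsd17b7, Dhcr7) and the regulators Srebf2 and Insig1. For 16 of these 17 genes the highest western library lay below the lowest chow library. That is near the share among all called genes, of which 314 of 367 did not overlap. Without 1 library at a time between 10 (without western knockout D) and 21 (without chow knockout C) of the 26 fell.

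The promoters of 3 genes that fell together are shown for the letters they share. Each is the RefSeq window on GRCm38.p6 from 250 bases before to 50 bases after the gene's start, read on the gene's strand. Capitals mark CCAAT on either strand (printed ATTGG where it lies on the other), the box bound by NF-Y, and TCACNCCA on either strand, a core of the sterol regulatory element bound by SREBP2. The windows are chr13:8885356-8885655 (plus strand) for Idi1, chr8:64733529-64733828 (minus) for Msmo1 and chr5:114444019-114444318 (plus) for Mvk.
Idi1: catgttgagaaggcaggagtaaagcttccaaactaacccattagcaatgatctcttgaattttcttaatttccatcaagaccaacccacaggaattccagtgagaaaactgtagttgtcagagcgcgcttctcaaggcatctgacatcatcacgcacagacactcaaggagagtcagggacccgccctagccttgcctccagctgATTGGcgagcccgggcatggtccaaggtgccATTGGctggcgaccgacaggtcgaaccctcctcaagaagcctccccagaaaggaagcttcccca
Msmo1: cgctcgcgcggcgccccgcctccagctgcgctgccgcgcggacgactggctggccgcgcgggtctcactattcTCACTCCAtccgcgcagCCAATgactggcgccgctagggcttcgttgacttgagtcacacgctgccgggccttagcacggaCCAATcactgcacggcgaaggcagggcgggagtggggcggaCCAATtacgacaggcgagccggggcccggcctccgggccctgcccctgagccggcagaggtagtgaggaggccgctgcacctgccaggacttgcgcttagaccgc
Mvk: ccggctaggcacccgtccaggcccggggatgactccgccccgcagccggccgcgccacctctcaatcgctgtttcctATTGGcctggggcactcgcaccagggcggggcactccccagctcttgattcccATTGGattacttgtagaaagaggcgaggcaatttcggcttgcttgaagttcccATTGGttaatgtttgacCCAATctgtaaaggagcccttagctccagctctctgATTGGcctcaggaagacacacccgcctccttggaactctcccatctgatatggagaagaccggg
Idi1 holds 2 CCAAT boxes and no match to the sterol element core, Msmo1 holds 3 and 1, and Mvk holds 5 and none. Among the 13 fallen genes with a promoter in the table, CCAAT was found in 13 and TCACNCCA in 2. Of all 32851 promoters, 37.4% hold CCAAT and 4.36% hold TCACNCCA (41.1% and 4.97% of genes with any promoter). The GC box GGGCGG, bound by Sp1, was in 12 of the 13, against 35.7% of all promoters. Of all 18 listed cholesterol genes with a promoter, fallen or not, CCAAT was in 17, TCACNCCA in 3 and GGGCGG in 16. The matches were thus not particular to the genes that fell. CCAAT, TCACNCCA and GGGCGG share no stretch that makes one a part of another. A match is a run of letters and was not measured here as a bound site.

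Idi1 and Sqle showed the deepest falls of the list. Idi1, the isopentenyl diphosphate isomerase, measured 5.88, 6.04, 1.14, 1.65 and 4.45 CPM in the chow knockouts A to E and 0, 0.454, 0.0633 and 0.0570 CPM in the western knockouts A to D. The groups did not overlap, and 1 western library held no count (log2 fold change -4.58 ± 0.83 SE, adjusted p = 0.00271). Sqle, the squalene epoxidase, measured 56.4, 59.6, 10.7, 16.2 and 39.9 CPM on chow and 2.89, 2.92, 2.41 and 2.40 CPM on western diet. The western livers lay close together while the chow livers spread widely, and the mean fell from 36.6 ± 22.5 (SD, n = 5) to 2.65 ± 0.290 (SD, n = 4) CPM, 7.26% of chow (log2 fold change -3.79 ± 0.66 SE, adjusted p = 0.00271). Mvk, the mevalonate kinase, measured 14.9, 14.2, 5.09, 6.90 and 12.4 CPM on chow and 3.18, 3.95, 3.61 and 2.68 CPM on western diet (log2 fold change -1.67 ± 0.31 SE, adjusted p = 0.00271). Fdps, which makes farnesyl diphosphate, went from 13.03 ± 5.49 (SD, n = 5) to 2.85 ± 0.705 (SD, n = 4) CPM (log2 fold change -2.20 ± 0.48 SE, adjusted p = 0.0117).

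The later enzymes fell in the same livers. Msmo1, a sterol C4 demethylase, measured 151, 203, 27.7, 50.1 and 107 CPM on chow and 12.1, 18.4, 12.8 and 12.9 CPM on western diet (log2 fold change -2.93 ± 0.53 SE, adjusted p = 0.00296). Western knockout B was the highest of the 4 and still below every chow liver. Cyp51, the lanosterol demethylase, measured 154, 129, 56.2, 57.6 and 116 CPM on chow and 18.3, 17.0, 18.5 and 31.9 CPM on western diet (log2 fold change -2.25 ± 0.40 SE, adjusted p = 0.00271). Tm7sf2, a sterol C14 reductase, measured 152, 116, 111, 126 and 126 CPM on chow and 37.5, 83.0, 36.4 and 32.1 CPM on western diet (log2 fold change -1.41 ± 0.23 SE, adjusted p = 0.000946). Its western libraries A, C and D lay close together and B stood well above them.

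Regulators of sterol supply fell too. Srebf2, which encodes SREBP2, measured 45.1, 53.3, 33.0, 31.8 and 39.2 CPM on chow and 22.0, 17.1, 23.1 and 16.5 CPM on western diet, without overlap (log2 fold change -1.04 ± 0.18 SE, adjusted p = 0.00114). Insig1, which retains the SREBP complex in the endoplasmic reticulum, fell from 117 ± 56.9 (SD, n = 5) to 45.4 ± 9.52 (SD, n = 4) CPM (log2 fold change -1.36 ± 0.35 SE, adjusted p = 0.0368). Its groups overlapped, since western knockouts B and C lay above chow knockout C.

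Among the genes that did not pass the threshold, Hmgcs1, the HMG-CoA synthase, had values of 101 ± 50.6 (SD, n = 5) CPM on chow and 37.5 ± 3.43 (SD, n = 4) CPM on western diet, without overlap (log2 fold change -1.43 ± 0.41 SE, adjusted p = 0.0638).

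The SD over chow livers was above that over western livers in 24 of the 26 genes, and below it in Tm7sf2 and Sc5d, a sterol desaturase. In 23 of the 26 genes, chow knockouts C and D were the lowest of the 5 chow livers, and in 16 of the 17 fallen genes. Chow livers A, B and E carried the high values, as with Sqle at 39.9 to 59.6 CPM against 10.7 and 16.2 CPM in C and D.

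**Figure D2:**
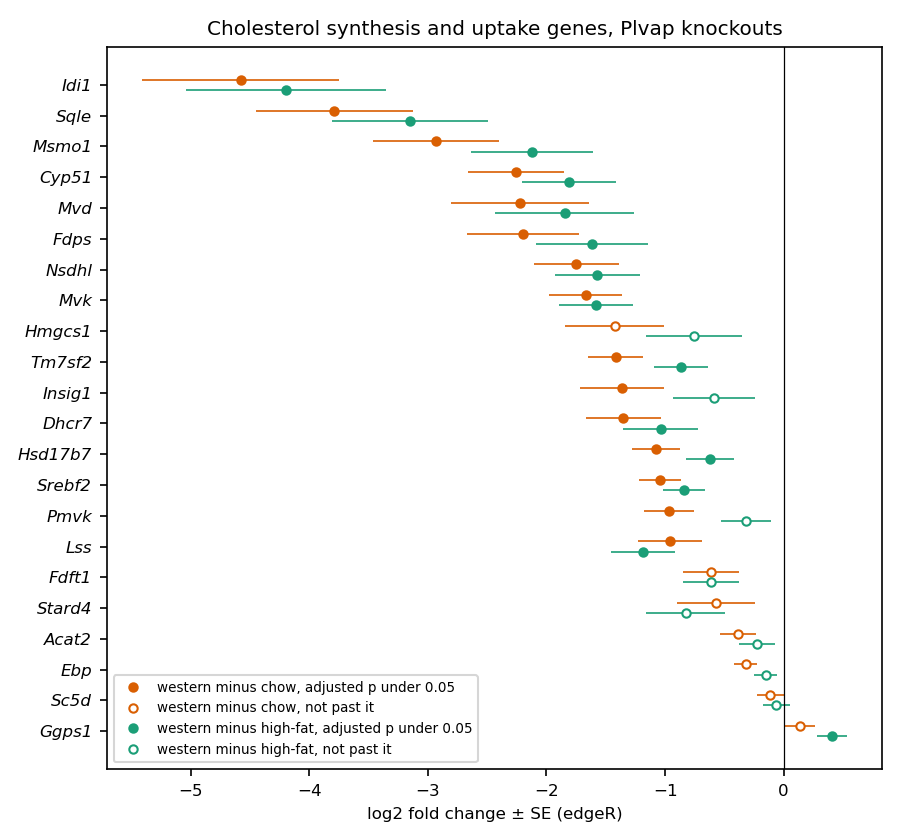
Log2 fold change with its standard error for 22 of the 26 cholesterol synthesis and uptake genes in Plvap knockouts, western diet minus chow (orange) and western minus high-fat diet (green), both against the same 4 western libraries. Filled points passed an adjusted p of 0.05, 15 of the genes shown being lower than on chow and 13 lower than on high-fat diet, and Ggps1 is the one gene higher than on high-fat diet.

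High-fat livers gave the comparison within 1 table. Of all genes tested, 1008 were higher (7.30%) and 672 lower (4.87%) on western than on high-fat diet, 12.2% in all. The total was 840, 1022, 925 and 877 without western knockouts A, B, C and D in turn, and 662 without high-fat knockout E. In the cholesterol list 16 of 26 genes were lower on western diet and 1, Ggps1, was higher. This comparison uses the same 4 western livers as the one with chow, so the values are given side by side. Sqle measured 15.8, 7.80, 14.2, 15.3 and 63.2 CPM in the high-fat knockouts A to E (log2 fold change -3.15 ± 0.66 SE, adjusted p = 0.00631). Idi1 measured 2.31, 0.487, 1.83, 2.90 and 6.86 CPM there (log2 fold change -4.19 ± 0.84 SE, adjusted p = 0.00514). All high-fat values of both genes lay above all western values, and high-fat knockout E was the highest of its group in 16 of the 17 genes that fell against chow.

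**Figure D3:**
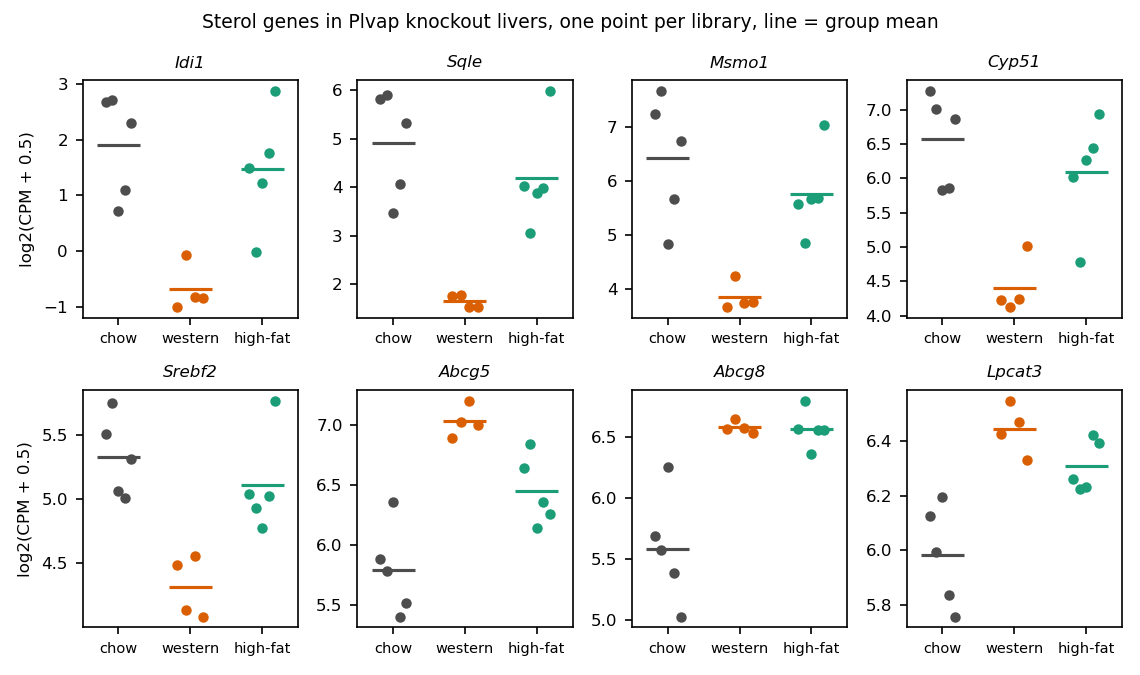
Each point is 1 library of Plvap knockouts on chow (5), western diet (4) or high-fat diet (5), with log2 of CPM plus 0.5 on the y axis (scales differ between panels) and the group mean as a line. Idi1, Sqle, Msmo1, Cyp51 and Srebf2 lie lowest on western diet, and Abcg5, Abcg8 and Lpcat3 lie lowest on chow.

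A few sterol export genes rose. Of 17 listed LXR targets and export genes, all tested, 3 rose (background 1.17%) and 0 fell by edgeR, with 2 lower at an unadjusted p under 0.05, none lower by DESeq2, 2 lower by limma-voom and 1 lower in a fit of only the compared groups. The list's median log2 fold change was 0.22. Abcg5 and Abcg8 encode the partners of the transporter that moves sterols into bile. Abcg5 measured 58.6, 54.6, 81.4, 41.8 and 45.3 CPM on chow and 118, 129.6, 147 and 127 CPM on western diet (log2 fold change 1.21 ± 0.19 SE, adjusted p = 0.00063). Abcg8 measured 50.8, 47.1, 75.7, 41.2 and 32.0 CPM on chow and 93.9, 99.3, 94.6 and 91.9 CPM on western diet (log2 fold change 0.94 ± 0.17 SE, adjusted p = 0.00271). Neither pair of groups overlapped, and chow knockout C was the highest chow liver for both. Both genes lie on chromosome 17 in the GRCm39 coordinates of the tables, Abcg5 at 84965662 to 84990439 on the minus strand and Abcg8 at 84983730 to 85007761 on the plus strand, so that their annotated spans overlap and reads from the shared stretch cannot be assigned to one of them without strand. Lpcat3, which puts polyunsaturated chains into membrane phospholipids, measured 69.3, 63.3, 72.7, 56.7 and 53.6 CPM on chow and 85.5, 93.2, 88.2 and 80.0 CPM on western diet (log2 fold change 0.46 ± 0.09 SE, adjusted p = 0.0054). The exporter Abca1 had 108 ± 10.8 (SD, n = 5) CPM on chow and 164 ± 14.5 (SD, n = 4) CPM on western diet, without overlap, but did not pass (log2 fold change 0.60 ± 0.18 SE, adjusted p = 0.0609).

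Lipogenesis showed 1 call. Of 24 tested genes of fatty acid synthesis and NADPH supply, 1 rose (background 1.17%), Mlxipl, which encodes the carbohydrate response factor ChREBP (81.7 ± 23.6 (SD, n = 5) to 157 ± 13.1 (SD, n = 4) CPM; log2 fold change 0.94 ± 0.19 SE, adjusted p = 0.00665). None fell by edgeR, while 7 were higher and 6 lower at an unadjusted p under 0.05 and 3 lower by DESeq2. Scd1, the stearoyl-CoA desaturase, had 7977, 1569, 2078, 1675 and 2599 CPM on chow and 10833, 12181, 6957 and 6494 CPM on western diet. Chow knockout A overlapped the western livers and the other chow livers lay below them (log2 fold change 1.52 ± 0.60 SE, adjusted p = 0.19). Against high-fat diet, where Scd1 had 575, 969, 1458, 170.5 and 3139 CPM, the western livers were higher (log2 fold change 2.85 ± 0.63 SE, adjusted p = 0.00782). Fasn, the fatty acid synthase, had 40.0 ± 20.4 (SD, n = 5) CPM on chow and 20.0 ± 2.58 (SD, n = 4) CPM on western diet and did not pass (adjusted p = 0.133). Of 20 genes of fructolysis and glycolysis, Tkfc fell (background 1.48%), the triokinase of fructose breakdown (197 ± 43.8 (SD, n = 5) to 116 ± 9.35 (SD, n = 4) CPM; log2 fold change -0.76 ± 0.17 SE, adjusted p = 0.0119), and none rose by edgeR, DESeq2, or at an unadjusted p under 0.05. Ketohexokinase, Khk, had 395 ± 66.04 (SD, n = 5) CPM on chow and 453 ± 49.3 (SD, n = 4) CPM on western diet (log2 fold change 0.20 ± 0.15 SE, adjusted p = 0.565).

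Fatty acid binding and oxidation genes rose in part. In the list of fatty acid uptake and binding, 3 of 20 tested genes rose (background 1.17%) and 2 fell (background 1.48%). Without 1 library the rises numbered 1 (without chow knockout E or western knockout D) to 4 (without chow knockout C). The falls numbered 0 without chow knockout B or western knockout A or D, and 1 without chow knockout A or E or western knockout B or C. Fabp2, known as the intestinal fatty acid binding protein, measured 76.3, 64.7, 150.4, 121 and 56.9 CPM on chow and 308, 499, 392 and 410.5 CPM on western diet, and every western value exceeded every chow value (log2 fold change 2.10 ± 0.24 SE, adjusted p = 1.01e-05). It was also higher than on high-fat diet, where it measured 174, 106, 144, 185 and 117 CPM (log2 fold change 1.47 ± 0.24 SE, adjusted p = 0.00149). Fabp1, the liver binding protein, rose from 3081 ± 1422 (SD, n = 5) to 6632 ± 1289.8 (SD, n = 4) CPM (log2 fold change 1.11 ± 0.25 SE, adjusted p = 0.0134). In littermate controls Fabp1 averaged 5400 ± 920 (SD, n = 6) CPM on chow and 6375 ± 1761 (SD, n = 5) CPM on western diet. It was not called there (log2 fold change 0.24 ± 0.23 SE, adjusted p = 0.665), and the chow knockouts had the low mean. Fabp2 was called in controls (log2 fold change 1.37 ± 0.22 SE, adjusted p = 0.000671). Slc27a2, a very long chain acyl-CoA synthetase and transporter, rose from 1671 ± 182 (SD, n = 5) to 2226 ± 83.6 (SD, n = 4) CPM (log2 fold change 0.41 ± 0.11 SE, adjusted p = 0.0373). The genes that fell were Acsl3, an acyl-CoA synthetase (log2 fold change -1.08 ± 0.26 SE, adjusted p = 0.0244), and Lipg, the endothelial lipase (log2 fold change -1.57 ± 0.38 SE, adjusted p = 0.0244). Fabp1 and Slc27a2 did not pass against high-fat diet (log2 fold change 0.28 ± 0.25 SE, adjusted p = 0.488 for Fabp1).

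Peroxisomal genes were called in both directions, while most leaned higher. Of 21 tested 2 rose (background 1.17%), among them Acaa1b, a thiolase of peroxisomal beta-oxidation, and 1 fell (background 1.48%), Abcd2, a very long chain acyl-CoA transporter. Positive fold changes were seen for 17 of the 21, with 11 higher and 1 lower at an unadjusted p under 0.05 and 8 higher and 1 lower by limma-voom. Between 1 (without chow knockout E or western knockout D) and 5 (without chow knockout C) rose without 1 library, and Abcd2 was not called without chow knockout B or E, without western knockout A, B or D, or with the replicate block. Acaa1b measured 552, 269.8, 978, 311 and 333 CPM on chow and 1053, 1119.6, 1447 and 1405 CPM on western diet, with chow knockout C close to the western range (log2 fold change 1.36 ± 0.31 SE, adjusted p = 0.0144). Abcd2 measured 28.7, 35.5, 35.3, 20.6 and 33.7 CPM on chow and 2.12, 11.2, 10.8 and 4.45 CPM on western diet (log2 fold change -2.08 ± 0.53 SE, adjusted p = 0.032). In mitochondrial beta-oxidation 1 of 20 genes rose (background 1.17%), Decr1 (log2 fold change 0.48 ± 0.12 SE, adjusted p = 0.0212), and of 7 ketogenesis genes 0 passed edgeR or DESeq2, with 2 higher at an unadjusted p under 0.05.

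Apoa4, an apolipoprotein of triglyceride-rich particles, measured 141, 279, 327, 271 and 213 CPM on chow and 996, 1036, 602 and 545 CPM on western diet. All western values exceeded all chow values (log2 fold change 1.69 ± 0.33 SE, adjusted p = 0.00467), and the high-fat livers, at 159, 265, 266, 388 and 274 CPM, overlapped the chow range (log2 fold change 1.56 ± 0.32 SE, adjusted p = 0.00582). It was the one gene of 23 apolipoprotein and VLDL assembly genes to rise (background 1.17%), and none fell by edgeR, while 3 were higher and 4 lower at an unadjusted p under 0.05 and 3 lower by DESeq2.

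Some male-biased genes rose, and about as many female-biased genes fell. Of 29 tested genes of the male-biased list, 5 rose (background 1.17%) and 1, Susd4, fell (background 1.48%). Of 9 tested genes of the 17 on the female-biased list, 5 fell (background 1.48%) and none rose by edgeR, DESeq2, or at an unadjusted p under 0.05. The other listed genes were too low to be tested. Cyp3a44 was at most 0.193 CPM in western and 0.203 CPM in high-fat knockouts, so the filter on low counts kept it mainly through its chow level. A gene kept in this way can hardly be called higher, so the balance of falls and rises is in part set by the filter. Between 3 and 6 male-biased genes rose when 1 library was left out. The female-biased falls went down to 2 without chow knockout E, 3 without chow knockout B or without western knockout A or B, and 1 without western knockout D.

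Mup20, the major urinary protein known as the male pheromone darcin, measured 4282, 5277, 6574, 6107 and 3477 CPM on chow and 14563, 10701, 16531 and 13589.8 CPM on western diet (log2 fold change 1.43 ± 0.21 SE, adjusted p = 0.000253). Mup21 measured 80.5, 82.3, 113, 134 and 83.0 CPM on chow and 270.3, 396, 384.1 and 422.3 CPM on western diet (log2 fold change 1.90 ± 0.27 SE, adjusted p = 0.000212). For neither gene did the groups overlap. Hsd3b5, a male-biased hydroxysteroid dehydrogenase, measured 79.1, 40.3, 148, 82.8 and 33.4 CPM on chow and 228, 298, 199.5 and 459 CPM on western diet, and every western liver lay above the highest chow liver, C (log2 fold change 1.95 ± 0.46 SE, adjusted p = 0.0212). Cyp4a12b, a fatty acid omega-hydroxylase, measured 9.47, 9.91, 21.9, 13.2 and 13.1 CPM on chow and 30.2, 40.0, 39.4 and 45.0 CPM on western diet (log2 fold change 1.52 ± 0.25 SE, adjusted p = 0.00131), and its near copy Cyp4a12a also rose (log2 fold change 1.21 ± 0.30 SE, adjusted p = 0.0272). Mup, Cyp4a12 and Cyp3a genes have near-identical copies, so the assignment of reads among them is uncertain.

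Cux2, a transcription factor of the female-biased list, measured 3.00, 28.6, 1.81, 11.3 and 18.2 CPM on chow and 0.0964, 0.259, 1.33 and 0.285 CPM on western diet. Chow knockouts A and C were low and B, D and E high, and all lay above the western livers (log2 fold change -4.58 ± 0.98 SE, adjusted p = 0.0117). Cyp3a44 measured 2.42, 2.63, 1.41, 0.759 and 1.58 CPM on chow and 0.193, 0.0648, 0.127 and 0.114 CPM on western diet (log2 fold change -3.78 ± 0.62 SE, adjusted p = 0.000799). Prlr, the prolactin receptor, measured 127, 169.8, 88.0, 141 and 157 CPM on chow and 66.7, 87.7, 74.4 and 43.1 CPM on western diet (log2 fold change -1.01 ± 0.23 SE, adjusted p = 0.0183). Its highest western value and its lowest chow value nearly met. Trim24 fell by a like amount (log2 fold change -1.01 ± 0.25 SE, adjusted p = 0.0261), and the fifth gene was Abcd2, given above.

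The littermate controls had other means than the chow knockouts for several genes of these lists, Mup21 and Cux2 among them, but not for every gene. Mup21 averaged 349 ± 113 (SD, n = 6) CPM in chow controls and 444 ± 96.5 (SD, n = 5) CPM in western controls, against 98.6 ± 24.0 (SD, n = 5) and 368 ± 67.1 (SD, n = 4) CPM in the knockouts. Cux2 averaged 3.49 ± 3.29 (SD, n = 6) CPM in chow controls and 1.80 ± 1.59 (SD, n = 5) CPM in western controls, against 12.6 ± 11.2 (SD, n = 5) and 0.493 ± 0.564 (SD, n = 4) CPM. The western knockouts were near the western controls for Mup21, and the chow knockouts were the group with the low Mup21 and the high Cux2 means, though chow knockouts and chow controls overlapped for Cux2. On chow, controls and knockouts did not overlap for Cyp4a12b (means 45.4 and 13.5 CPM), Cyp4a12a (113 and 37.3 CPM) or Abcd2 (11.7 and 30.8 CPM). They overlapped for Mup20 (means 8192 and 5144 CPM), Prlr (86.9 and 137 CPM), Cyp3a44 (0.503 and 1.76 CPM) and Trim24 (25.3 and 32.1 CPM). Hsd3b5 averaged 75.6 ± 46.4 (SD, n = 6) CPM in chow controls and 76.7 ± 45.6 (SD, n = 5) CPM in chow knockouts, a difference well within their spread. The difference of the diet effect between genotypes did not pass for Mup21 (log2 difference 1.55 ± 0.36 SE, adjusted p = 0.606) or Cux2 (log2 difference -3.62 ± 1.25 SE, adjusted p = 1).

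**Figure D4:**
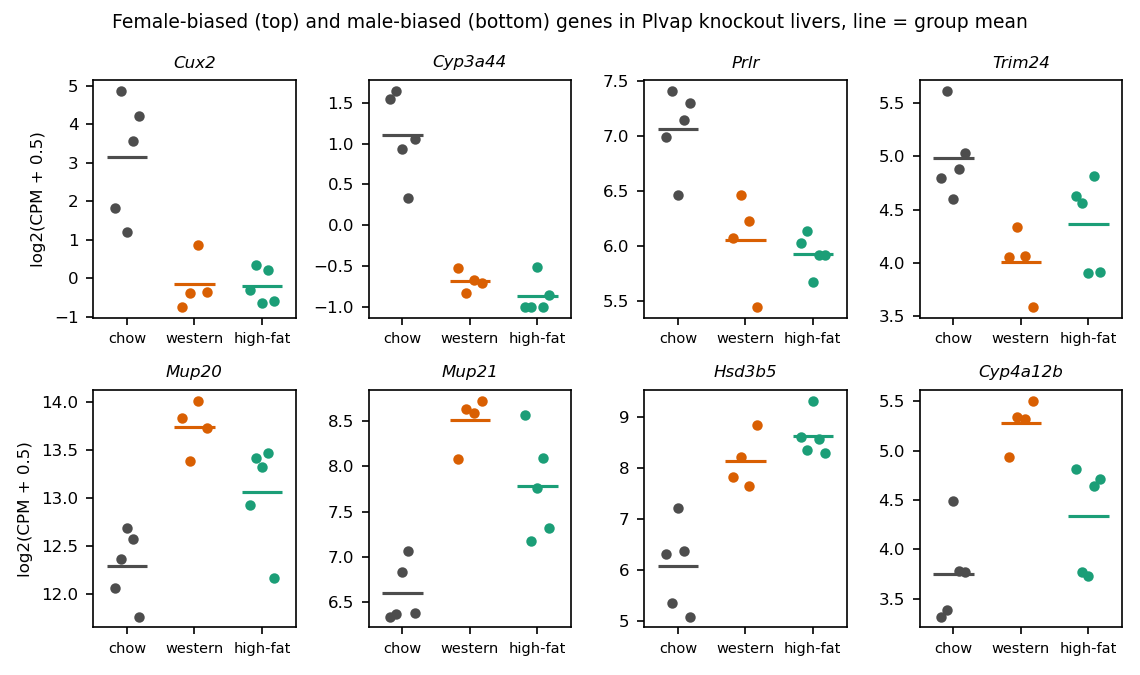
Each point is 1 library of Plvap knockouts on chow (5), western (4) or high-fat diet (5), with log2 of CPM plus 0.5 on the y axis (scales differ between panels) and the group mean as a line. The female-biased genes Cux2, Cyp3a44, Prlr and Trim24 are highest on chow, and the male-biased genes Mup20, Mup21, Hsd3b5 and Cyp4a12b are lowest there.

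Bile acid genes showed 3 calls among 24 tested (background 2.66%), 1 higher and 2 lower. The rise was not called without chow knockout E or western knockout B. The falls numbered 0 without chow knockout B, D or E, without western knockout A or D, and with the replicate block, and 1 without western knockout B or C. Slco1b2, a sinusoidal uptake carrier, rose from 1314 ± 157 (SD, n = 5) to 2248 ± 338 (SD, n = 4) CPM (log2 fold change 0.77 ± 0.18 SE, adjusted p = 0.0176). Cyp27a1, the sterol 27-hydroxylase of the alternative pathway, fell from 396 ± 44.8 (SD, n = 5) to 272 ± 23.1 (SD, n = 4) CPM (log2 fold change -0.54 ± 0.13 SE, adjusted p = 0.0249), and the carrier Slco1a4 measured 117, 225, 93.1, 165 and 234 CPM on chow and 27.2, 78.7, 60.4 and 18.1 CPM on western diet (log2 fold change -1.85 ± 0.50 SE, adjusted p = 0.0437). Cyp7a1, the rate-limiting enzyme of the classic pathway, had 57.8, 125, 23.1, 122 and 83.1 CPM on chow and 70.9, 210.4, 75.8 and 25.0 CPM on western diet, with wide overlap (log2 fold change 0.22 ± 0.60 SE, adjusted p = 0.908). Cyp8b1, the sterol 12-hydroxylase, had 651 ± 135 (SD, n = 5) CPM on chow and 425.8 ± 91.2 (SD, n = 4) CPM on western diet (log2 fold change -0.61 ± 0.23 SE, adjusted p = 0.167).

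Nitrogen and one-carbon genes fell in part. Among 25 urea cycle and periportal genes, Ass1, Asl and Gls2 fell (background 1.48%) and Apoa4 rose (background 1.17%). Ass1, the argininosuccinate synthase, measured 1546, 2447, 1619, 2219 and 2237 CPM on chow and 1326, 956.1, 899 and 840.0 CPM on western diet, without overlap (log2 fold change -1.002 ± 0.22 SE, adjusted p = 0.0101). Asl, the lyase that follows it, measured 742, 1528, 795, 1241 and 1220.4 CPM on chow and 529.6, 513, 459 and 301 CPM on western diet (log2 fold change -1.29 ± 0.31 SE, adjusted p = 0.0229). Gls2, the liver glutaminase, lay at the edge of the threshold (log2 fold change -0.59 ± 0.17 SE, adjusted p = 0.0499). Of 19 amino acid and one-carbon genes, Gnmt, the glycine N-methyltransferase (log2 fold change -0.99 ± 0.21 SE, adjusted p = 0.00869), and Pemt, which methylates phosphatidylethanolamine (log2 fold change -0.51 ± 0.12 SE, adjusted p = 0.0189), fell (background 1.48%). None of the 3 periportal falls was called without western knockout D, and 1 of the list fell without chow knockout B, D or E, without western knockout B or C, and with the replicate block. The high-fat values of Asl were like the western ones (log2 fold change -0.01 ± 0.30 SE, adjusted p = 0.986).

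Detoxification genes fell in part. Of 30 antioxidant and glutathione genes 4 fell (background 1.48%), and 0 rose by edgeR and DESeq2, with 1 higher at an unadjusted p under 0.05. The glutathione transferase Gstm1 measured 539, 483, 429.9, 396 and 463 CPM on chow and 162, 225, 268 and 177 CPM on western diet, without overlap (log2 fold change -1.15 ± 0.23 SE, adjusted p = 0.00561). Gstm3 (log2 fold change -2.02 ± 0.53 SE, adjusted p = 0.0378) and Gstm2 (log2 fold change -1.10 ± 0.30 SE, adjusted p = 0.0448), close copies whose reads can be shared, and the carbonyl reductase Cbr1 (log2 fold change -0.74 ± 0.16 SE, adjusted p = 0.0108) were the others. Of the list 1 fell without western knockout D, and 2 fell without chow knockout A, B, D or E, without western knockout A or C, and with the replicate block. Of 31 drug-metabolising cytochromes, Cyp2c68 (log2 fold change -0.88 ± 0.17 SE, adjusted p = 0.00428), Cyp2c38 (log2 fold change -1.23 ± 0.33 SE, adjusted p = 0.0418) and Cyp3a44 fell (background 1.48%), and Cyp2c38 was not called with the replicate block or without any 1 library other than chow knockout C. Among retinoid genes, Hsd17b6 rose (log2 fold change 1.35 ± 0.36 SE, adjusted p = 0.0418) and the retinol dehydrogenases Rdh11 (log2 fold change -1.06 ± 0.19 SE, adjusted p = 0.00197) and Rdh16f2 (log2 fold change -0.88 ± 0.19 SE, adjusted p = 0.00869) fell, of 24 tested (background 1.17% higher and 1.48% lower). The rise of Hsd17b6 was not called with the replicate block or without any 1 library other than chow knockout C or western knockout A, and 1 of the list fell without western knockout D.

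Some cytosolic ribosomal protein genes fell by small amounts. Of 83 tested, 24 fell (background 1.48%), 59 were not called and 0 rose, with none higher at an unadjusted p under 0.05 or by DESeq2, and the list's median log2 fold change was -0.28. Rps6 measured 113, 118, 102, 116 and 107 CPM on chow and 69.2, 71.1, 79.3 and 69.9 CPM on western diet (log2 fold change -0.62 ± 0.11 SE, adjusted p = 0.00223). Rpl10 measured 278, 269, 282, 279.7 and 262 CPM on chow and 179.8, 179, 220.4 and 204 CPM on western diet (log2 fold change -0.48 ± 0.09 SE, adjusted p = 0.00271). These genes are short, with a median exon length of 1770 bases against 4183 over all genes tested, and have many pseudogene copies. With a trend on gene length removed 26 fell. The count was 12 without western knockout A, 7 without B, 13 without D and 15 without chow knockout E, and 7 in a fit that also held the refed livers.

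Outside these lists, the largest rises with at least 1 CPM and no overlap included Adam11, a catalytically inactive member of the ADAM family, which measured 8.88, 12.9, 7.10, 5.57 and 6.79 CPM on chow and 43.6, 37.9, 49.9 and 42.7 CPM on western diet (log2 fold change 2.40 ± 0.25 SE, adjusted p = 2.49e-06). High-fat livers measured 5.08, 8.49, 6.24, 4.50 and 5.74 CPM, in the chow range (log2 fold change 2.85 ± 0.26 SE, adjusted p = 8.84e-08). Arrdc3, an arrestin domain protein, measured 108, 35.2, 63.1, 26.2 and 27.5 CPM on chow and 190.0, 326, 158 and 177 CPM on western diet (log2 fold change 2.03 ± 0.52 SE, adjusted p = 0.0351). The stress-induced gene Gadd45a (log2 fold change 1.94 ± 0.47 SE, adjusted p = 0.0208), the Wnt inhibitor Wif1 (log2 fold change 1.89 ± 0.51 SE, adjusted p = 0.042), the carriers Slc35f2 (log2 fold change 2.86 ± 0.62 SE, adjusted p = 0.0108) and Slc22a28 (log2 fold change 1.81 ± 0.33 SE, adjusted p = 0.00271), and the ribonuclease gene Pnldc1 (log2 fold change 1.83 ± 0.46 SE, adjusted p = 0.0292) completed the named rises. Of the 9 fits without 1 library, Wif1 was not called in 8, Arrdc3 in 6, Pnldc1 in 5 and Gadd45a in 3. Adam11, Slc35f2 and Slc22a28 were called in all 9.

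The largest falls outside the lists included Cyp17a1, the steroid 17-hydroxylase, at 76.4, 111, 111, 161 and 63.8 CPM on chow and 42.8, 7.13, 4.75 and 6.56 CPM on western diet. Western knockout A stood well above the other western livers and still below every chow liver (log2 fold change -2.82 ± 0.70 SE, adjusted p = 0.031). Fam19a2 (log2 fold change -4.32 ± 0.76 SE, adjusted p = 0.00195), the axonemal dynein gene Dnaic1 (log2 fold change -3.04 ± 0.65 SE, adjusted p = 0.00961) and Srgap3, a GTPase activating protein (log2 fold change -2.67 ± 0.42 SE, adjusted p = 0.00055), fell from low levels of at most 6.66 CPM (Fam19a2), 4.41 CPM (Dnaic1) and 3.41 CPM (Srgap3) in any chow liver. Of the 9 fits without 1 library, Cyp17a1 was not called in 5, and Fam19a2, Dnaic1 and Srgap3 were called in all 9.

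Lists of injury, matrix and other cell types held 0 or 1 call each, against 2.66% of all genes tested. In lists of 15 to 34 genes, counts this low lie near that share. Of 34 tested fibrogenic matrix genes 0 passed edgeR, while 6 were higher and 2 lower at an unadjusted p under 0.05 and DESeq2 called 1 each way. Col1a1 had 2.02, 0.774, 2.08, 1.65 and 2.11 CPM on chow and 4.24, 2.33, 3.55 and 4.85 CPM on western diet, low but without overlap (log2 fold change 1.097 ± 0.50 SE, adjusted p = 0.257). Of 20 inflammatory genes 0 passed edgeR or DESeq2, with 1 higher at an unadjusted p under 0.05. Of 25 acute phase genes 0 passed edgeR or DESeq2, with 1 higher and 2 lower at an unadjusted p, and Saa1 spanned 6048, 2979.8, 294, 476 and 6727 CPM on chow and 7297, 50.5, 767 and 2071 CPM on western diet. Of 26 endothelial markers 0 passed edgeR, with 3 lower at an unadjusted p and 2 lower by DESeq2. Of 15 Kupffer cell markers 0 passed edgeR or DESeq2, with 2 lower at an unadjusted p. Of 15 lipid-associated macrophage markers 0 passed edgeR, with 1 each way at an unadjusted p and 1 higher by DESeq2. Of 21 stellate cell markers Vipr1 fell (log2 fold change -0.63 ± 0.15 SE, adjusted p = 0.0185) and none rose by edgeR or DESeq2, with 7 lower and 1 higher at an unadjusted p and 3 lower by limma-voom. Negative fold changes were seen for 14 of the 21 stellate markers, and their summed level was 607 to 679 CPM on chow and 460.0 to 557 CPM on western diet, without overlap.

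The same diet contrast in the littermate controls called 188 genes higher (1.36%) and 123 lower (0.891%), 2.25% in all. That total of 311 was 181 without chow control D, 184 with the replicate block and 136 in a fit of only the compared groups. Of the 367 genes called in knockouts, 358 had the same sign in controls, and 107 were called in both, 52 higher and 55 lower, with 0 called in opposite directions. These are 29.2% of the knockout calls and 34.4% of the control calls. No library is shared by the 2 contrasts, but both span the same 2 tables. In controls 18 of the 26 cholesterol genes fell, with Sqle at 30.3 ± 17.2 (SD, n = 6) CPM on chow and 2.90 ± 0.914 (SD, n = 5) CPM on western diet (log2 fold change -3.38 ± 0.59 SE, adjusted p = 0.00194), and 6 of 17 sterol export genes rose, with Abcg5 from 50.3 ± 6.61 (SD, n = 6) to 186 ± 46.6 (SD, n = 5) CPM (log2 fold change 1.89 ± 0.18 SE, adjusted p = 5.23e-08). Not every list called in knockouts was called in controls. By edgeR, 1 male-biased gene rose and 2 fell there, and 0 female-biased, peroxisomal or bile acid genes were called. Of the urea cycle and periportal list 1 rose and 0 fell. Of the ribosomal list 0 rose and 6 fell, and of the fatty acid uptake and binding list 2 rose and 0 fell. Fabp2 was 1 of these 2, and Fabp1 was not.

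A difference of the diet effect between knockouts and controls was tested as an interaction, in which a shift between tables common to both genotypes cancels. It called 0 of 13807 genes (0%) with edgeR, 466 at an unadjusted p under 0.05 and 2 with DESeq2, and the lowest adjusted p was 0.453. Without chow control A 1 gene was called. The 5 genes with the smallest p included Mup21, given above, and Foxo1, a transcription factor of fasting metabolism, at 42.3 ± 5.94 (SD, n = 5) to 32.9 ± 9.09 (SD, n = 4) CPM in knockouts and 26.2 ± 5.96 (SD, n = 6) to 39.9 ± 9.41 (SD, n = 5) CPM in controls (log2 difference -0.97 ± 0.23 SE, adjusted p = 0.606). The others were Gm42031 (log2 difference -3.37 ± 0.69 SE, adjusted p = 0.453), Gm4316 and AC158975.2. The mean of Gm4316 was below 1 CPM in each of the 4 groups.

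**Figure D5:**
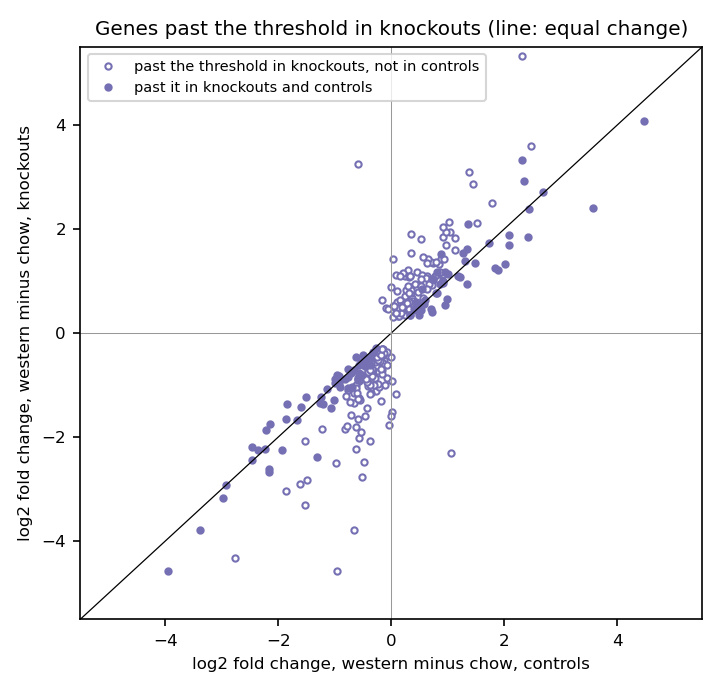
Each point is 1 of the 367 genes called in knockouts, with the log2 fold change of western diet minus chow in controls on the x axis and in knockouts on the y axis. Filled points are the 107 genes called in both, and 358 of 367 share their sign, with the line marking equal change.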

How the data were processed

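Bulk RNA of snap-frozen livers was sequenced, and the labels' protocols name NEBNext Ultra RNA for library preparation. The authors deposited raw counts per Ensembl gene, with the summed exon length of each gene, a column of another unit, per the file headers. The submitters' processing notes name STAR 2.7.8a, featureCounts 2.0, FastQC 0.11.9, MultiQC 1.10.1 and the build GRCm39. The counting strand and annotation release are not given in the sources used here. Symbols from GENCODE vM21, matched on the Ensembl identifier, cover 52083 of 55416 genes (94.0%), and genes without one hold 0.48% of counts. Coordinates of genes are those of the tables, and promoter windows come from RefSeq on GRCm38.p6.

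The 30 libraries of the 6 groups of the Plvap line fasted for 12 h, from 2 tables joined by gene, were fitted together in edgeR 4.0.16 (R 4.3.3) with TMM scaling, filterByExpr (minimum count 10, minimum total 15) and the robust quasi-likelihood F-test. A gene was called where its adjusted p (Benjamini-Hochberg) was under 0.05 over the 13807 genes tested. SE is the log2 fold change divided by the square root of F. Library totals over these groups ran from 6656342 to 21570506 counts, and PCR copies are not independent molecules. On simulated counts of this comparison (13646 genes), 33 of 50 genes changed 2-fold, 50 of 50 changed 4-fold, 47 of 50 changed 8-fold and 20 of 50 changed 1.5-fold were called in the right direction, with 7 calls among 13446 unchanged genes. Alternatives were DESeq2 1.42.0, limma-voom (limma 3.58.1), other size factors, filters and sets of groups, a replicate block, a gene length trend, and each library left out.

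The comparison, the 49 gene lists and the rule for named genes were chosen with earlier results of these data known. The rule took Plvap, the 10 largest rises and the 10 largest falls among called genes with a known symbol, at least 1 CPM in the higher group and no overlap between libraries, up to 4 called genes of smallest p from each list with at least 3 calls, and the 5 smallest p of the difference of diet effects. Members of the lipid, bile acid, inflammation and matrix lists could be named for their role, and single calls of other lists (Mlxipl, Tkfc, Decr1, Slc27a2, Gnmt, Pemt, Susd4, Vipr1) were named after their values were seen. The Cav1 and refed livers were not used for the comparisons, except that refed livers entered 1 alternative fit. Some genes that were tested and counted are not reported here by name.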

Additional observations from a re-analysis of the deposited data

Results flagged for a closer look

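Values that stood apart within a group were sought in the 62 named genes by the gap between an extreme library and its nearest neighbour, divided by the range of the group (Dixon's 95% limits, groups of 4 and 5). Of 124 groups of values 6 passed, 4.84%, where the limits let about 1 in 20 independent groups pass. The genes were chosen by their values in these libraries and share them, so that rate is only a rough guide. All 6 lay among the 4 western knockouts. Library B was the highest for Idi1 at 0.454 CPM, for Msmo1 at 18.4 CPM and for Tm7sf2 at 83.0 CPM. The same library held the muscle signal of 52.1 CPM, and whether that bears on these values was not tested. Library C was the highest for Cux2, at 1.33 CPM. Library A was the highest for Cyp17a1, at 42.8 CPM, and the lowest for Cyp4a12a, at 56.97 CPM.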

How the results depend on the processing

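Directions of the diet effect held for all 57 named genes with a call under each of the 19 alternatives, and 23 of the 57 stayed past the threshold in all of them. These genes were chosen by their calls in the same libraries, and some also for no overlap between the groups. The kept directions were therefore largely set by that choice and are not separate evidence. Counts moved more. For western diet against chow in knockouts (162 higher and 205 lower), DESeq2 called 262 higher and 336 lower, limma-voom with sample quality weights 462 and 628, a fit without a filter on low counts 98 and 111, and a fit with the replicate block 97 and 120. Leaving out 1 library gave 57 (without chow knockout E) to 174 (without chow knockout C) higher and 72 (without western knockout D) to 245 (without chow knockout C) lower. The other alternatives (DESeq2 size factors, a filter at 1 CPM, only the compared groups, 8 groups with refed livers, the gene length trend, no mitochondrial genes) gave 145 to 216 higher and 178 to 261 lower. For western against high-fat diet (1680), no filter gave 1010, only the compared groups 782 and leaving out 1 library 662 to 1785. For the difference between genotypes (0), DESeq2 called 2 genes and leaving out 1 library gave 0 to 1. No pairing of libraries by letter was found, since same-letter deviations correlated at -0.076, 0.087, -0.038 and -0.151, so the replicate block tests only a shared letter. Why the counts moved was not tested. Depth limits genes near 1 CPM most.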

Other observations

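Interferon-stimulated genes were 1 group in which the 2 genotypes gave different counts of calls. In knockouts 1 of 32 tested genes rose on western diet (against 1.17% of all genes), Ifit2, at a list median log2 fold change of 0.27, and none fell by edgeR, DESeq2 or at an unadjusted p under 0.05. In littermate controls 18 of 32 rose (against 1.36% of all genes), with a median of 0.88. The difference of the diet effect was negative for 32 of 32 genes, with a median of -0.54 against -0.01 over all genes. None of these differences passed edgeR or DESeq2 (lowest edgeR adjusted p = 1), while 6 were lower at an unadjusted p under 0.05. A difference between genotypes was therefore not shown for any single gene.

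Dync2li1, a dynein light intermediate chain gene, lies beside Abcg5 on chromosome 17, at 84933924 to 84963016 in the GRCm39 coordinates of the tables, and rose with it. It was named after its values were seen. It measured 0.510 ± 0.211 CPM on chow and 1.70 ± 0.399 CPM on western diet in knockouts (SD, n = 5 and n = 4; log2 fold change 1.73 ± 0.35 SE, edgeR adjusted p = 0.00561). Whether these counts are transcripts of Dync2li1 itself was not tested.

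Chac1, a glutathione-degrading enzyme of the stress response, was the one gene of 29 in the unfolded protein response list to rise (background 1.17%). It measured 1.76 ± 1.01 CPM on chow and 9.51 ± 7.63 CPM on western diet (SD, n = 5 and n = 4; log2 fold change 2.38 ± 0.53 SE, edgeR adjusted p = 0.0142), and none of the list fell by edgeR or DESeq2, with 3 lower at an unadjusted p under 0.05. Cdkn1a, the cell cycle inhibitor p21, fell from 39.1 ± 20.8 to 6.85 ± 4.69 CPM (SD, n = 5 and n = 4; log2 fold change -2.50 ± 0.65 SE, edgeR adjusted p = 0.0368), and chow knockout A, at 9.14 CPM, lay within the western range of 3.24 to 13.7 CPM.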
